A study of Mus musculus with 2 samples.

Results

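Type 2 innate-like lymphocytes were sought in the lymph nodes of mice, among immune cells from the wild type (WT) and from a conditional knockout of Rpa1 (CKO). The cells were selected on measured values. A cell was a member if it held at least 2 unique molecular identifiers (UMIs, which count captured transcripts) summed over Il4, Il1rl1 and Il17rb, and none of Foxp3, Cd79a or Ms4a1. The rule found 55 of 25779 kept cells, 19 of 12463 in WT and 36 of 13316 in CKO. Kept cells had 500 UMIs and 200 genes or more, and a mitochondrial share no higher than 10%. Both genotypes were on the C57BL/6 strain background, and each was represented by 1 library made with the 10x Chromium 3′ v3.1 chemistry. The age and number of the mice, the Cre driver and the deleted exons are not given in the sources used here. With 1 library per genotype, a difference between genotypes cannot be told apart from a difference between animals or between library preparations. No test was therefore made, and every interval is an exact 95% interval that covers counting error only.

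Type 2 lymphocytes make the cytokines IL-4, IL-5 and IL-13 and respond to the epithelial alarmins IL-33, IL-25 and TSLP. The cells that do this without prior priming include group 2 innate lymphoid cells (ILC2), which carry no antigen receptor, as well as natural killer T cells and γδ T cells. Il1rl1 encodes the IL-33 receptor ST2, Il17rb a subunit of the IL-25 receptor, and Gata3 the transcription factor that both T helper 2 cells and ILC2 need.

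The libraries held 12769 WT and 13754 CKO barcodes, with medians of 5984 and 4549 UMIs per barcode, and 306 and 438 barcodes were left out by the limits on UMIs, genes and mitochondrial share. The 2 libraries shared 56 barcodes, none of which belonged to a member. Members were about equally deep in both, with medians of 6697 UMIs in WT (range 2825 to 16337) and 7038 in CKO (range 4475 to 26795). The targeted gene, Rpa1 (chromosome 11, 75298166 to 75348324 on GRCm38), encodes the largest subunit of the single-stranded DNA-binding complex replication protein A. It was found at 8 UMIs in WT members and 12 in CKO members, or 54.4 and 38.5 CPM (UMIs scaled to a total of 1000000), with a CKO-to-WT ratio of 0.708 and an interval too wide to set a direction (0.266 to 1.995). In other T cells, meaning Cd3e-positive cells without Foxp3, Cd79a, Ms4a1 or any UMI of the rule genes, the Rpa1 level was 40.4 CPM for WT against 25.9 CPM for CKO. None of the 7 CKO members with Cd3e had an Rpa1 UMI, but the 62391 UMIs of these cells allow up to 48.1 CPM. A 3′ count need not show a deletion elsewhere in the gene, so the Rpa1 values check the genotype labels only in part.

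The 3 rule genes were spread differently over the members of each library. Il4 (chromosome 11, 53602982 to 53618669) was detected in 10 of 19 WT members and 21 of 36 CKO members. Il1rl1 (chromosome 1, 40429570 to 40465415) was detected in 4 WT and 21 CKO members, and Il17rb (chromosome 14, 29996135 to 30008896) in 15 and 31. Per WT cell, Il4 ranged from 0 to 4 UMIs with a median of 1, Il1rl1 from 0 to 11 with a median of 0, and Il17rb from 0 to 4 with a median of 1. Per CKO cell the ranges were 0 to 4, 0 to 8 and 0 to 7, with medians of 1, 1.5 and 2. All 3 genes met in 2 WT cells and 12 CKO cells. Il17rb stood alone in 7 WT and 9 CKO cells, which therefore met the rule through 1 gene.

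Many members lay at the threshold. The rule sum was exactly 2 in 10 WT and 9 CKO members and exactly 3 in 4 and 4. Its median was 2 in WT and 4 in CKO, and its highest values were 14 and 17. Just outside, 82 WT and 32 CKO cells with a sum of 1 met every other condition. Trac, the constant region of the αβ receptor's α chain, was detected in 92.7% of the WT cells with a sum of 1 and in 71.9% of the CKO ones. Gata3 was detected in 39.0% and 43.8% of these cells (14.8% and 12.5% thinned, as below). The conditions on other cell types mattered too. Of 35 WT cells with a rule sum of at least 2, 11 had Foxp3 and 8 had Cd79a or Ms4a1. In CKO, 2 of 50 such cells had Foxp3 and 13 had Cd79a or Ms4a1.

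The name was then checked against Gata3 (chromosome 2, 9857078 to 9890034), the 1 defining marker that the rule did not use. Gata3 was found in 28 of 36 CKO members (77.8%) and in 9 of 19 WT members (47.4%). With every cell thinned to 2000 UMIs, to set cells of unequal depth at one depth, the shares were 52.8% and 31.6%. The Gata3 share was 21.1% in WT and 22.3% in CKO other T cells, and 0.875% and 0.721% in B cells, which should lack Gata3. Per WT member Gata3 ranged from 0 to 6 UMIs with a median of 0, and per CKO member from 0 to 15 with a median of 3. Rora, a nuclear receptor required for ILC2 development, was found in 12 WT (63.2%) and 28 CKO members (77.8%), or 26.3% and 27.8% thinned, against 4.26% and 5.81% of other T cells and 0.175% and 0.303% of B cells. Gata3 or Rora was present in 13 of 19 WT and 31 of 36 CKO members. Of members with the T cell gene Cd3e, 9 of 15 in WT and 4 of 7 in CKO had Gata3 or Rora. Gata3 itself was found in 5 and 4 of them. Any of the co-receptor genes Cd4, Cd8a and Cd8b1 was present in 10 and 4 of them. Of members without Cd3e, 4 of 4 and 27 of 29 had Gata3 or Rora. The name was thus borne out for most CKO members and for the 4 WT members without Cd3e. Among members with Cd3e, the Gata3 share in WT (5 of 15) was below that of the WT cells with a rule sum of 1, given above. In CKO (4 of 7) it was above that of the CKO ones. The share of Gata3 or Rora in other T cells is not given here, so the name was not settled for members with Cd3e. Of the 7 WT and 9 CKO cells that entered on Il17rb alone, 4 and 4 had Gata3 or Rora. All 25 CKO members with UMIs of at least 2 rule genes had Gata3 or Rora, as did 6 of 8 such WT members.

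**Figure D1:**
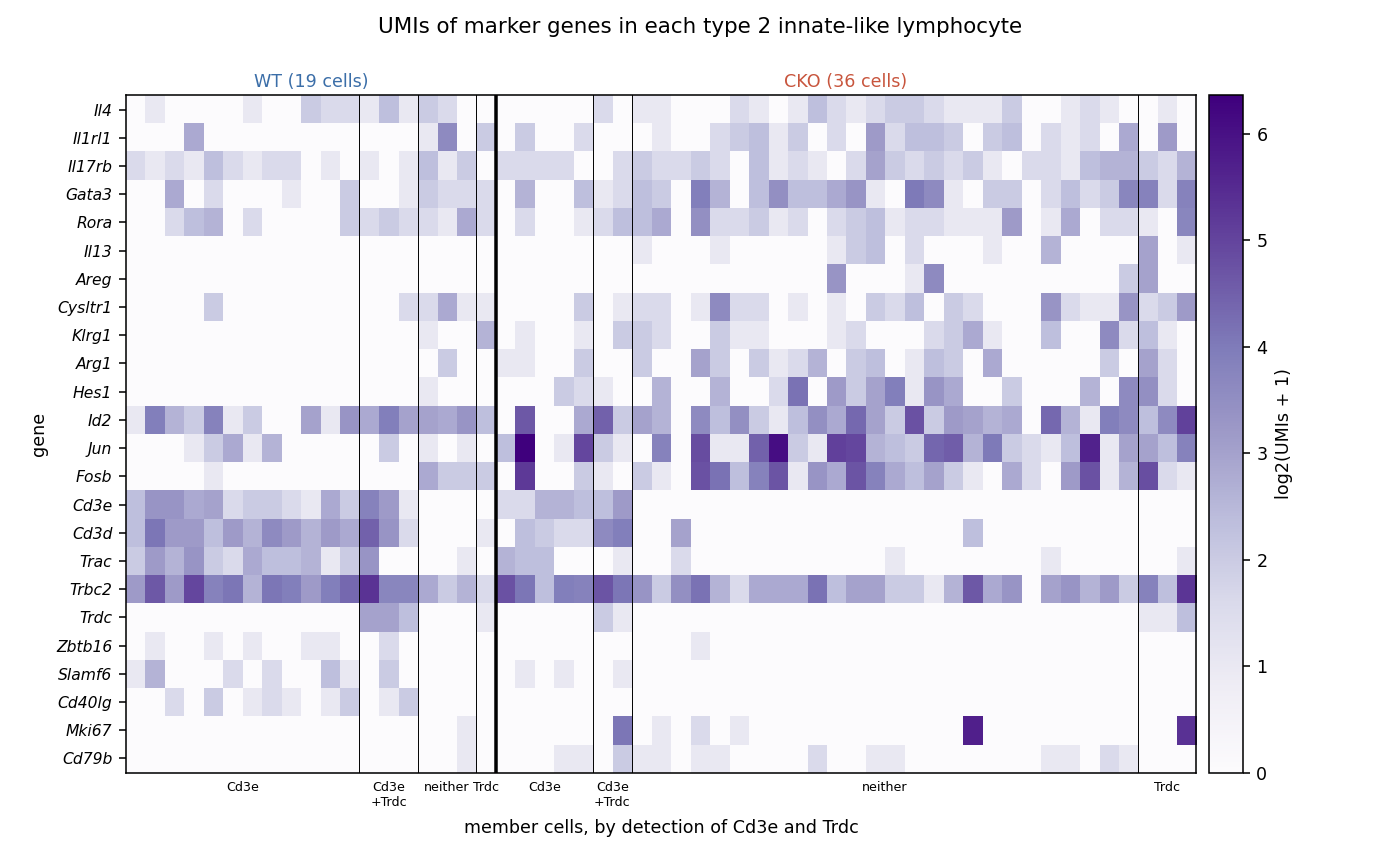
UMIs, as log2(UMIs + 1), of 24 genes (vertical axis) in each of the 55 members (columns), split by library (thick line) and by detection of Cd3e and Trdc (thin lines). The WT columns are mostly cells with Cd3e, Cd3d and Trac, whereas most CKO columns lack these genes and carry Gata3, Rora and Jun.

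Members made up 0.152% of kept WT cells (interval 0.0918 to 0.238%) and 0.270% of kept CKO cells (0.189 to 0.374%), a ratio of 1.77 (0.991 to 3.27). The interval just reached 1, so the share of the whole library was not separable by counting error. B cells, counted as cells with Cd79a and without Cd3e, were 7911 in CKO and 2857 in WT. Among kept cells without Cd79a and Ms4a1, members were 0.229% in WT (19 of 8288) and 0.942% in CKO (36 of 3821), 4.11 times the WT share (2.30 to 7.59). With every cell thinned to 2000 UMIs, 7 WT and 15 CKO members remained and this ratio was 4.47 (1.72 to 13.0).

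Members without Cd3e, a subunit of the CD3 signalling complex of the T cell receptor, were 29 of 36 in CKO (80.6%, interval 64.0 to 91.8%) and 4 of 19 in WT (21.1%, 6.05 to 45.6%). Of the members left after thinning to 2000 UMIs, 14 of 15 in CKO (93.3%) and 4 of 7 in WT (57.1%) had no Cd3e, a ratio of 1.63 whose interval of 0.513 to 6.81 allows either direction. Of all kept cells, 4 in WT (0.0321%) and 29 in CKO (0.218%) were members without Cd3e, a ratio of 6.79 (2.38 to 26.6). Of kept cells without Cd3e, Cd79a and Ms4a1, they were 0.678% in WT (4 of 590) and 4.86% in CKO (29 of 597), a ratio of 7.16 (2.52 to 28.1). Members with Cd3e were 15 in WT and 7 in CKO. Set against kept cells with Cd3e and without Cd79a and Ms4a1, these were 0.195% (15 of 7698) and 0.217% (7 of 3224), a ratio of 1.11 whose interval of 0.384 to 2.90 allows either direction.

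Sorted by the receptor genes, the make-up of the members differed between the libraries. Cd3e without Trdc, the constant region of the δ chain that marks γδ T cells, was found in 12 of 19 WT members (63.2%, interval 38.4 to 83.7%) and in 5 of 36 CKO members (13.9%, 4.67 to 29.5%). Cd3e together with Trdc was found in 3 WT (15.8%) and 2 CKO members (5.56%). Neither gene was found in 3 WT members (15.8%, 3.38 to 39.6%) and 26 CKO members (72.2%, 54.8 to 85.8%). Trdc without Cd3e was found in 1 WT and 3 CKO members. The intervals of WT and CKO did not overlap for Cd3e alone nor for neither gene. When any of Cd3e, Cd3d and Cd3g marked a T cell, cells with none of the 3 were 2 of 19 in WT (10.5%) and 19 of 36 in CKO (52.8%).

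**Figure D2:**
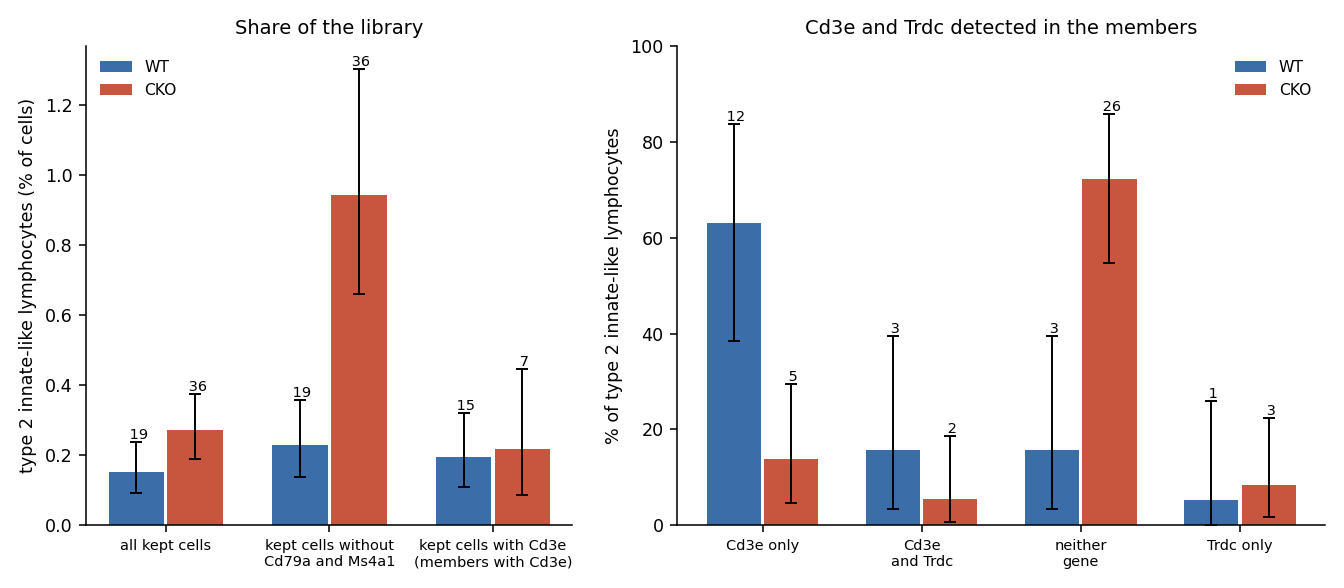
Share of type 2 innate-like lymphocytes in each library over 3 denominators (left, % of cells) and share of the members by detection of Cd3e and Trdc (right, % of members), with WT in blue and CKO in red, exact 95% binomial intervals as error bars and the number of cells above each bar. The CKO bar is highest among cells without Cd79a and Ms4a1, at 0.942%, and for members with neither gene, at 72.2%.

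Absence of Cd3e did not mean absence of every receptor transcript. Trbc2, a constant region of the β chain, was found in 4 of 4 WT and 28 of 29 CKO members without Cd3e, at 713 and 950 CPM. Its share was 35.9% and 39.9% in NK cells (cells with Ncr1 and without Cd3e) and 9.84% and 5.95% in B cells, so the members stood above both. Tcrg-C1, a constant region of the γ chain, was found in 2 of 4 WT and 20 of 29 CKO members without Cd3e (69.0%, or 27.6% when thinned), against 1.28% of WT and 3.76% of CKO NK cells. Trdv4, a δ chain variable segment, was found in 2 of 4 and 11 of 29, and was at 17 UMIs over all CKO members. Its share was 10.3% in WT and 12.7% in CKO NK cells and 0.164% in CKO B cells. Trac, by contrast, was found in 4 of 29 CKO members without Cd3e (13.8%), against 88.4% of other CKO T cells. In the same cells Cd3d was found in 2 (6.90%) and Cd3g in 10 (34.5%). Sequence similarity between γ chain constant genes can split or mix their reads, so counts of single γ genes are uncertain.

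Natural killer T cell genes were found mostly in WT members with Cd3e. Zbtb16, which encodes PLZF, the factor that directs natural killer T cell development, was found in 6 of 15 WT members with Cd3e, at 1 or 2 UMIs each (40.0%, or 6.67% thinned). None of the 7 CKO members with Cd3e and 1 of the 29 without it had Zbtb16, and 0.273% of other WT T cells and 0.537% of other CKO T cells did. Trav11, the α chain variable segment of invariant natural killer T cells, was found in 2 WT members, at 2 UMIs each. Those 2 cells also had Zbtb16 and held 3 and 2 UMIs of Il4. Zbtb16 and Trav11 were rare counts, and the 62391 UMIs of the 7 CKO members with Cd3e allow up to 48.1 CPM of either gene, beside the 56.2 CPM of Zbtb16 in WT.

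Compared with other T cells of the same library, the members of both libraries shared a set of genes. Of 1475 genes with at least 100 CPM in either group of each library, 52 (3.53%) were at least 2-fold higher in members in both libraries with an interval above 1, and 15 (1.02%) were at least 2-fold lower with an interval below 1. Of the 52, 3 were the rule genes Il17rb, Il1rl1 and Il4, which are absent from other T cells by definition. After these, the largest ratios were those of Cysltr1, a receptor for cysteinyl leukotrienes. Cysltr1 was 350 times (160 to 769) as high in WT members as in other WT T cells and 327 times as high in CKO, and was found in 6 of 19 and 23 of 36 members. Hlf, a PAR bZIP transcription factor, was 259 and 205 times as high, but 15 of its 17 WT UMIs lay in 1 cell. Pxdc1 was 171 and 90.2 times as high, and was also found in 41.0% of WT and 41.8% of CKO B cells.

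The shared genes included other regulators of innate lymphocytes. Each ratio is against other T cells, which hold no cell with Foxp3 and no cell without Cd3e, such as NK cells. It does not mark a gene as particular to the members. Rora was 28.6 times as high in WT and 19.5 times as high in CKO members. Maf, a bZIP factor of IL-4-producing T cells, was 16.8 and 14.0 times as high, and Id2, an inhibitor of E proteins that innate lymphoid cells require, 7.57 and 11.5 times. The costimulatory receptor Icos was 11.7 and 10.0 times as high, and the chemokine receptor Cxcr6 9.37 and 8.60 times. The membrane proteins Tmem176a (27.4 and 13.8 times) and Tmem176b (17.5 and 13.2 times), the transcriptional cofactor Lmo4 (9.56 and 18.8 times) and the AP-1 subunit Fosb (9.92 and 51.3 times) completed the 15 highest. Fosb differed most between the libraries, and its counts are given with the immediate early genes. Among the genes lowest in members were Ifi214, Cd8a, Nsg2, Ccr7, Cd8b1, Ifit1, Rasgrp2, Dapl1 and Actn1. Ccr7, the receptor that guides naive T cells into lymph nodes, was at 0.274 of the level in other WT T cells and 0.0750 of that in CKO. Cd8a, a co-receptor chain of cytotoxic T cells, was at 0.178 and 0.240. A gene could be called in 1 library and not in the other: 141 and 164 genes were higher and 26 and 125 lower in WT and CKO taken alone, of 1719 and 1703 tested.

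**Figure D3:**
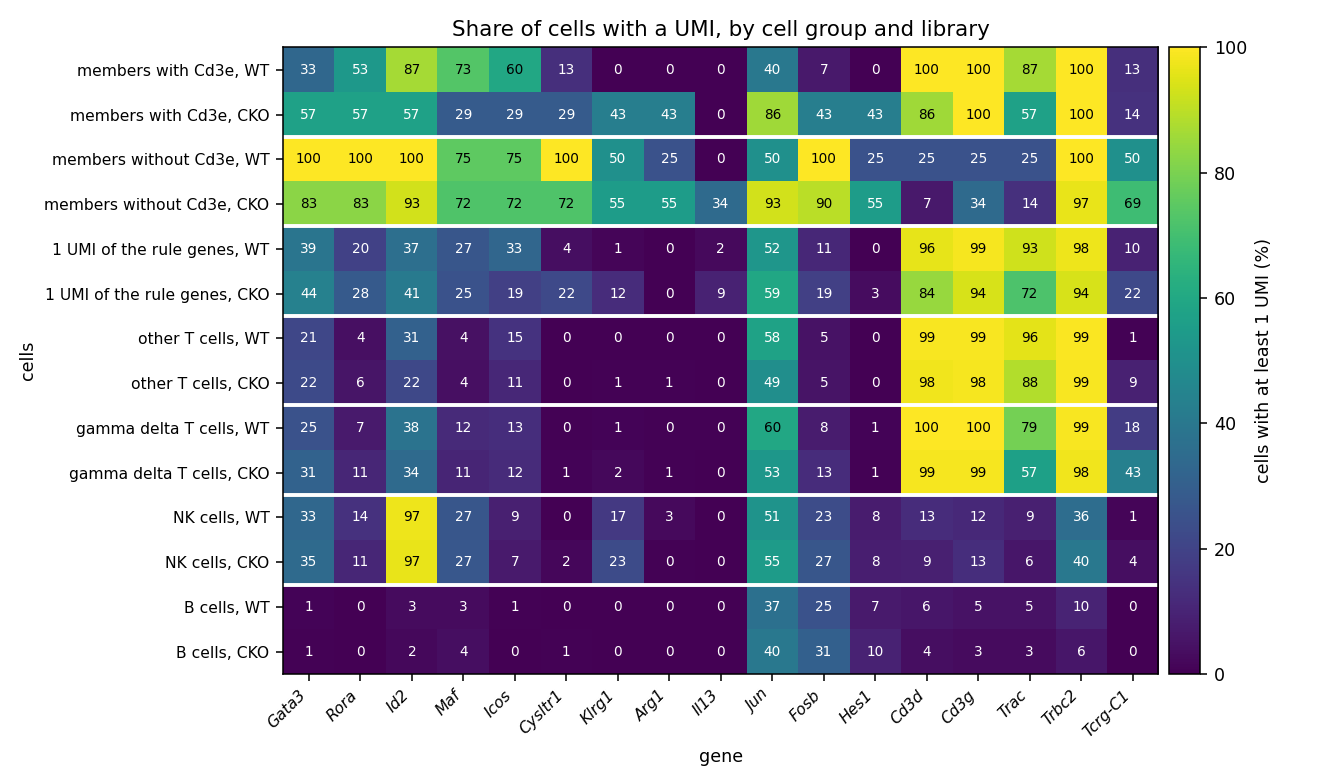
Share of cells with at least 1 UMI (colour and printed number, %) of 17 genes (horizontal axis) in members with and without Cd3e, cells with 1 UMI of the rule genes, other T cells, γδ T cells outside the rule, NK cells and B cells of each library. In CKO, Cysltr1, Klrg1, Arg1 and Il13 were most frequent in members without Cd3e, and Jun reached 86% and 93% in the CKO members with and without Cd3e against 40% and 50% in WT.

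The members of the 2 libraries were then set against each other. Of 1854 genes with at least 100 CPM in either library, 108 (5.83%) were at least 2-fold higher in CKO with an interval above 1, and 146 (7.87%) at least 2-fold lower with an interval below 1. The median log2 ratio over the genes tested was -0.08. Of the higher genes 12 had no UMI in WT members, and of the lower genes 1 had none in CKO members. For 21 of the 254 genes, over 50% of the UMIs in the higher library came from 1 cell. With every cell given equal weight, 83 genes were higher and 182 lower. With members without Cd3e alone (4 WT and 29 CKO cells), 49 were higher and 200 lower. Those WT cells held 22430 UMIs in all, where a count of 0 allows up to 134 CPM, above the 100 CPM floor. The 2 directions were therefore not equally open to a call there. The 49 and 200 are not shares of the 1854 genes, and no direction is read from them. Among the higher genes 11 were also at least 2-fold higher in other CKO T cells, and among the lower genes 2 were also at least 2-fold lower there. The difference in Cd3e-positive cells, 15 of 19 against 7 of 36, stands beside every value below. With the make-up by Cd3e and Trdc given the same weights in both libraries, 95 genes were higher and 196 lower, although 1 WT cell with Trdc alone and 3 WT cells with neither gene then carry fixed weights. Ratios within members with and without Cd3e are given for some of the genes and lists whose value over all members they change. A value printed without them may carry the difference in make-up.

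**Figure D4:**
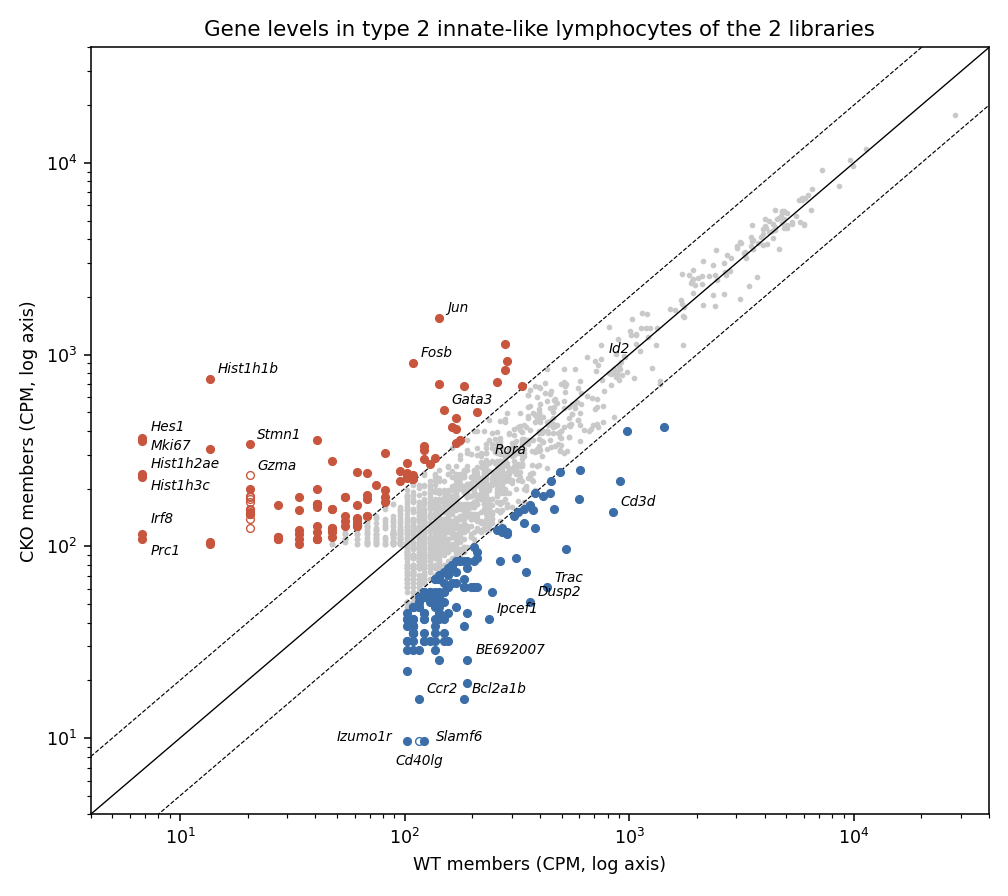
CPM of the 1854 genes tested in WT members (horizontal log axis) and CKO members (vertical log axis); red genes were at least 2-fold higher and blue genes at least 2-fold lower in CKO with an interval without 1, grey genes were neither, open circles had no UMI in a library and are drawn at the CPM of 3 counts, and lines mark equality and 2-fold. Jun and Fosb stand above the diagonal at high levels, whereas Slamf6, Cd40lg and Izumo1r lie lowest in CKO.

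Jun (chromosome 4, 95049034 to 95052222), an immediate early gene whose product c-Jun is a subunit of the AP-1 factor, combined a large ratio with high counts in many cells. Per WT cell it ranged from 0 to 6 UMIs with a median of 0, and per CKO cell from 0 to 81 with a median of 4. The ranges overlapped, but 17 of 36 CKO cells and 2 of 19 WT cells held at least 5 Jun UMIs. Jun was detected in 8 WT (42.1%, 26.3% thinned) and 33 CKO members (91.7%, 61.1% thinned). Summed, it came to 143 CPM for WT and 1546 CPM for CKO, 10.8 times the WT level (7.002 to 17.7). The ratio was 12.6 (7.74 to 21.7) within members with Cd3e, where 2 cells gave 81 and 30 of the 120 CKO UMIs. Within members without Cd3e it was 16.3 (4.47 to 135), and WT had 2 UMIs there. In other T cells, Jun was slightly lower in the CKO library, where it reached 210 CPM against 232 CPM for WT (ratio 0.904, 0.872 to 0.937). B cells were at 204 and 215 CPM and NK cells at 226 and 266 CPM.

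Most other immediate early genes were also higher in CKO members, by smaller ratios. Of 14 measured members of the list (mean of at least 20 CPM), 10 had an interval above 1 and 2 below 1, with a median log2 ratio of 1.25. Over all 5884 genes at this level, 349 (5.93%) were above and 430 (7.31%) below, with a median of -0.08. These shares are the background for every list count below. Fosb went from 16 UMIs in 5 WT cells to 282 UMIs in 29 CKO cells (109 and 904 CPM, ratio 8.31, 5.03 to 14.7). It was already at 669 CPM in the 4 WT members without Cd3e, each of which had at least 3 UMIs, against 970 CPM in CKO (ratio 1.45, 0.862 to 2.63). Fos was 4.92 times as high in CKO members (3.14 to 8.11), and 2.72 times (1.30 to 6.86) within members without Cd3e. Zfp36, which encodes an mRNA-destabilizing protein, was 3.74 times as high (2.50 to 5.81). Junb and Jund, other AP-1 subunits, were 1.496 and 1.497 times as high over all members. Within members without Cd3e they stood at 1.13 (0.791 to 1.66) and 0.735 (0.514 to 1.08). Dusp2, a phosphatase of MAP kinases, was lower, with 53 UMIs in WT and 16 in CKO (ratio 0.142, 0.0760 to 0.253), as was the costimulatory receptor Tnfrsf9, with 7 and 1. Summed, the list was 2.26 times as high in all members, 1.99 times with Cd3e and 1.54 times without, and 1.02 times in other T cells.

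Hes1, a repressor that Notch signalling induces, had 1 UMI in WT members and 114 UMIs in 19 CKO members, a ratio of 53.8 (9.46 to 2142). CKO cells held from 0 to 17 Hes1 UMIs with a median of 1, and 11 of them held at least 5. All but 6 of the 114 UMIs were in members without Cd3e, where the ratio was 9.71 (1.71 to 387). With equal make-up its log2 ratio went from 5.75 to 3.54. Other T cells had 9 WT and 13 CKO Hes1 UMIs in all, and B cells showed Hes1 in 7.35% of WT and 9.53% of CKO cells. Gzma, a granzyme of cytotoxic lymphocytes, was at 0 in WT and at 73 UMIs in 7 CKO cells, at least 11.5-fold higher against the 3 counts that a count of 0 allows in the WT members. Other T cells also had 7.69 times as much Gzma in CKO. Within CKO members, 2 cells above 15000 UMIs gave 24 and 25 of the 73 UMIs.

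Type 2 cytokines other than Il4 were found almost entirely in CKO members without Cd3e. Il13 (chromosome 11, 53631324 to 53634702) had 26 UMIs in 10 of 29 such cells (34.5%, 17.2% thinned), from 1 to 7 UMIs per positive cell, and none in any of the 19 WT members. Il13 was found in 0.0758% of CKO B cells and in 1 other T cell of each library. The WT total allows up to 20.4 CPM, so the 83.4 CPM in CKO was at least 4.09-fold higher. Within members without Cd3e, the 22430 WT UMIs allow up to 134 CPM, above the 104 CPM of CKO, so no difference was detectable there. Il4 and Il13 met in 6 CKO cells. Areg, an epidermal growth factor receptor ligand of ILC2, had 31 UMIs in 5 CKO cells and none in WT, at least 4.87-fold higher over all members. All 31 lay in members without Cd3e, among 249415 UMIs. That level is also below the 134 CPM that the WT cells allow there, so no difference was detectable within this subset. Csf2, which encodes GM-CSF, had 30 UMIs in 12 CKO cells and 1 UMI in WT (ratio 14.2, 2.35 to 577), and within members without Cd3e the ratio was 2.34 (0.384 to 95.9). Il5 had 3 UMIs in 1 CKO cell, and Il9 and Il3 had none in either library. Il4 itself, a gene of the rule, was at 136 CPM for WT and 115 CPM for CKO members. Of the 4 measured genes in the cytokine list, 3 had an interval above 1 and none below 1.

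Among the 18 measured receptors of type 2 lymphocytes, 2 had an interval above 1 and 6 below 1, and the median log2 ratio was -0.32. Over all genes at this level, 5.93% were above and 7.31% below. Klrg1, an inhibitory receptor of mature ILC2, was found in 2 WT and 19 CKO members, at 40.8 and 167 CPM (ratio 4.09, 1.76 to 11.6). Within members without Cd3e the Klrg1 ratio was 0.704 with an interval of 0.301 to 2.02. Cysltr1 was 2.36 times as high in CKO (1.34 to 4.42), and 0.639 times (0.328 to 1.39) within members without Cd3e. Il7r, the receptor chain for IL-7 and TSLP, was lower in CKO members, from 1367 to 731 CPM (ratio 0.535, 0.441 to 0.650). Its ratio was 0.368 with Cd3e, 0.367 without, and 0.487 (0.470 to 0.505) in other T cells. Crlf2, the other TSLP receptor chain, had 13 WT and 10 CKO UMIs (ratio 0.363, 0.142 to 0.896). The receptors Icos (0.644), Il18r1 (0.491), Tnfrsf18 (0.536) and Tnfrsf4 (0.129) were the others below 1, and 10 of the 11 WT UMIs of Tnfrsf4 lay in 1 cell. Icos was at 0.125 (0.0249 to 0.387) within members with Cd3e and at 1.53 (0.570 to 5.77) within those without. Il1rl1 and Il17rb, used by the rule, had ratios of 1.53 (0.925 to 2.62) and 1.38 (0.8898 to 2.204). Within members without Cd3e, Il1rl1 had 15 WT and 63 CKO UMIs (0.378, 0.213 to 0.714), and 11 of the 15 lay in 1 WT cell. The rule selected on Il1rl1, so no direction is read from its level among members.

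Of 17 measured transcription factors of the type 2 list, 4 were above 1 (Gata3, Batf, Id2 and Junb) and 5 below 1 (Zbtb16, Tcf7, Ets1, Maf and Bcl11b). Gata3 had 22 UMIs in WT and 160 in CKO members, 150 and 513 CPM (ratio 3.43, 2.19 to 5.63). Within members without Cd3e the ratio was 1.48 with an interval of 0.758 to 3.30. Rora was at 231 and 282 CPM (1.22, 0.813 to 1.87). Within members with Cd3e, Rora had 23 of 124650 UMIs in WT and 9 of 62391 in CKO. Within those without, it had 11 of 22430 and 79 of 249415, so CKO was not above WT in either subset. Batf, an AP-1-related factor, had 2 WT and 33 CKO UMIs (7.78, 1.99 to 66.9). Maf was lower, with 374 CPM for WT and 218 CPM for CKO members (0.583, 0.403 to 0.848). Within members with Cd3e, Maf had 44 WT UMIs and 2 CKO UMIs (0.0908, 0.0107 to 0.348). Ets1 was lower in both subsets, with ratios of 0.576 with Cd3e and 0.482 without. Tcf7, a factor of naive T cells and of early innate lymphoid development, had 50 WT and 41 CKO UMIs (0.387, 0.2496 to 0.596), and all 50 WT UMIs were in members with Cd3e.

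Signalling genes downstream of the alarmin and IL-4 receptors differed less. Of 16 measured, 2 were above 1 and none below, with a median log2 ratio of 0.18, beside 5.93% above and 7.31% below over all genes. Nfkbia, the inhibitor of NF-κB that NF-κB itself induces, was 2.77 times as high in CKO (1.96 to 4.01). Cish, a STAT5-induced suppressor of cytokine signalling, was 1.93 times as high (1.01 to 3.98), beside 2.88 times in other T cells. It was higher in neither subset, with 7 WT and 0 CKO UMIs in members with Cd3e and a ratio of 0.881 (0.353 to 2.83) in those without. Of 16 measured genes of innate lymphoid cells, 4 were above 1 (Arg1, Klrg1, Ly6a and Id2) and 5 below 1 (Il7r, Ltb, Lta, Thy1 and Zbtb16). Arg1, an arginase of ILC2, was found in 1 WT and 19 CKO members (3 and 62 UMIs, ratio 9.75, 3.18 to 48.6). Within members without Cd3e the Arg1 ratio was 1.71 (0.556 to 8.53), that of Ly6a 1.24 (0.757 to 2.16) and that of Id2 0.837 (0.557 to 1.31).

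Genes of T cells were lower in CKO members, of which 7 of 36 had Cd3e against 15 of 19 in WT. Of 14 measured genes of the T cell receptor complex and its co-receptors, 8 were below 1 and none above, with a median log2 ratio of -1.14. Cd3d had 124 WT and 47 CKO UMIs (ratio 0.179), and Trac 63 and 19 (0.142). Within members with Cd3e the complex summed to 5407 CPM for WT and 4183 CPM for CKO (0.774, 0.668 to 0.894). Cd3d stood at 0.585 and Trac at 0.451 of WT there. With equal make-up the log2 ratio of Cd3d went from -2.48 to -0.99, and that of Trac from -2.81 to -0.94. Of 16 measured genes of innate-like T cells, 11 were below 1 and 1 above, with a median log2 ratio of -1.15. Slamf6, a receptor that natural killer T cell selection uses, had 18 UMIs in 7 WT cells and 3 in 3 CKO cells (0.0786, 0.0148 to 0.269). All of these UMIs were in members with Cd3e, where the ratio was 0.333 (0.0628 to 1.14), and with equal make-up the log2 ratio of Slamf6 went from -3.67 to -1.56. Izumo1r, known as folate receptor 4 on T cells, had 15 and 3 (0.0943, 0.0175 to 0.333), and its log2 ratio went from -3.41 to -2.06 with equal make-up. Ly6c2 was the 1 gene above 1, with 10 and 75 UMIs.

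Cd40lg, the CD40 ligand of helper T cells, had 17 UMIs in 9 WT members and none in CKO members, and was at least 12.01-fold lower by the 3-count limit. All 17 UMIs were in members with Cd3e. Of 5 measured genes of follicular helper T cells, 4 were below 1: Cd40lg, Slamf6, Icos and Sh2d1a, the last 3 of which the innate-like T cell list also holds. Bcl2a1b, a survival factor of the BCL2 family, had 27 and 5 UMIs (0.0874), but it has near-identical paralogs, so its count is uncertain. The other genes among the 10 lowest were BE692007 (28 and 8 UMIs), Ccr2 (17 and 5), Dusp2 and Ipcef1 (35 and 13). With equal make-up the log2 ratio of BE692007 went from -2.89 to -0.95, that of Dusp2 from -2.81 to -1.53 and that of Ipcef1 from -2.51 to -1.15. Ccr2, a chemokine receptor of inflammatory cells, was at 0.139 (0.0400 to 0.392) in members and 2.90 times as high in other CKO T cells.

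Naive T cell genes and migration genes followed different courses. Of 13 measured naive T cell genes, 8 were below 1 and none above (median log2 ratio -1.41), among them Lef1, Bach2, Satb1 and S1pr1. Summed, they were at 0.489 of WT over all members, 1.06 within members with Cd3e (0.896 to 1.26) and 0.942 within those without (0.601 to 1.55). Of 20 measured homing and retention genes, 4 were above 1 (Rgs1, Ccr9, Cd69 and Itga4) and 5 below 1 (S1pr1, Ccr7, Itgae, Ccr2 and Cxcr3). Ccr9, the receptor for the gut chemokine CCL25, had 18 WT and 104 CKO UMIs (2.73, 1.64 to 4.78). S1pr1, which lets lymphocytes leave lymph nodes, had 39 and 26 (0.314, 0.184 to 0.530), and Cd69, which opposes it, had 14 and 77 (2.59, 1.46 to 4.97). The Cd69 ratio was 1.33 (0.390 to 4.19) within members with Cd3e and 1.28 (0.522 to 4.05) within those without. Itga4, an integrin subunit, was 1.803 times as high over all members and 2.89 times (1.52 to 5.59) within those with Cd3e. There, 1 cell held 16 of the 26 CKO UMIs. Within members without Cd3e, Itga4 stood at 0.445 (0.313 to 0.648). S1pr1 was at 0.922 (0.497 to 1.65) within members with Cd3e. The Rgs1 ratio was 0.937 (0.471 to 1.78) with Cd3e and 2.46 (1.31 to 5.18) without. In the members without Cd3e, single CKO cells held 70, 44 and 40 of the 273 CKO UMIs of Rgs1. Of 13 measured S100 and effector genes, 7 were below 1 and 2 above. S100a4 was at 673 CPM for WT and 407 CPM for CKO members (0.605, 0.462 to 0.795), while other T cells had 3.71 times as much in CKO. In CKO, 66 of its 127 UMIs came from 1 cell. Interferon-stimulated genes were mixed, with 3 of 37 above 1 and 7 below 1, beside 5.93% above and 7.31% below over all genes. Summed, they stood at 0.838 (0.772 to 0.911) over all members but at 1.09 (0.967 to 1.22) within members with Cd3e and 1.42 (1.12 to 1.83) within those without, beside 1.41 in other T cells.

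Cell cycle genes were high in few cells. Of 17 measured proliferation genes, 12 were above 1 and none below (median log2 ratio 1.79). Mki67, a protein of cycling nuclei, had 1 UMI in WT and 111 in CKO (ratio 52.4, 9.21 to 2086), of which 51, 40 and 16 lay in 3 cells. All 3 had over 15000 UMIs, as did 1 WT member. Without cells above 15000 UMIs, the log2 ratio of Mki67 was 1.05, down from 5.71 (3.33 with equal make-up), and that of Stmn1, a microtubule regulator, 1.71, down from 4.06. Replication-dependent histone genes rested on 1 cell: it held 228 of the 233 CKO UMIs of Hist1h1b, 67 of the 74 of Hist1h2ae and 71 of the 72 of Hist1h3c. That cell had 26795 UMIs, Gata3, Rora and Trdc. Prc1, a cytokinesis protein, had 34 UMIs in 4 CKO cells and 1 in WT (ratio 16.0, 2.69 to 652), and a log2 ratio of 1.68 with equal make-up.

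**Figure D5:**
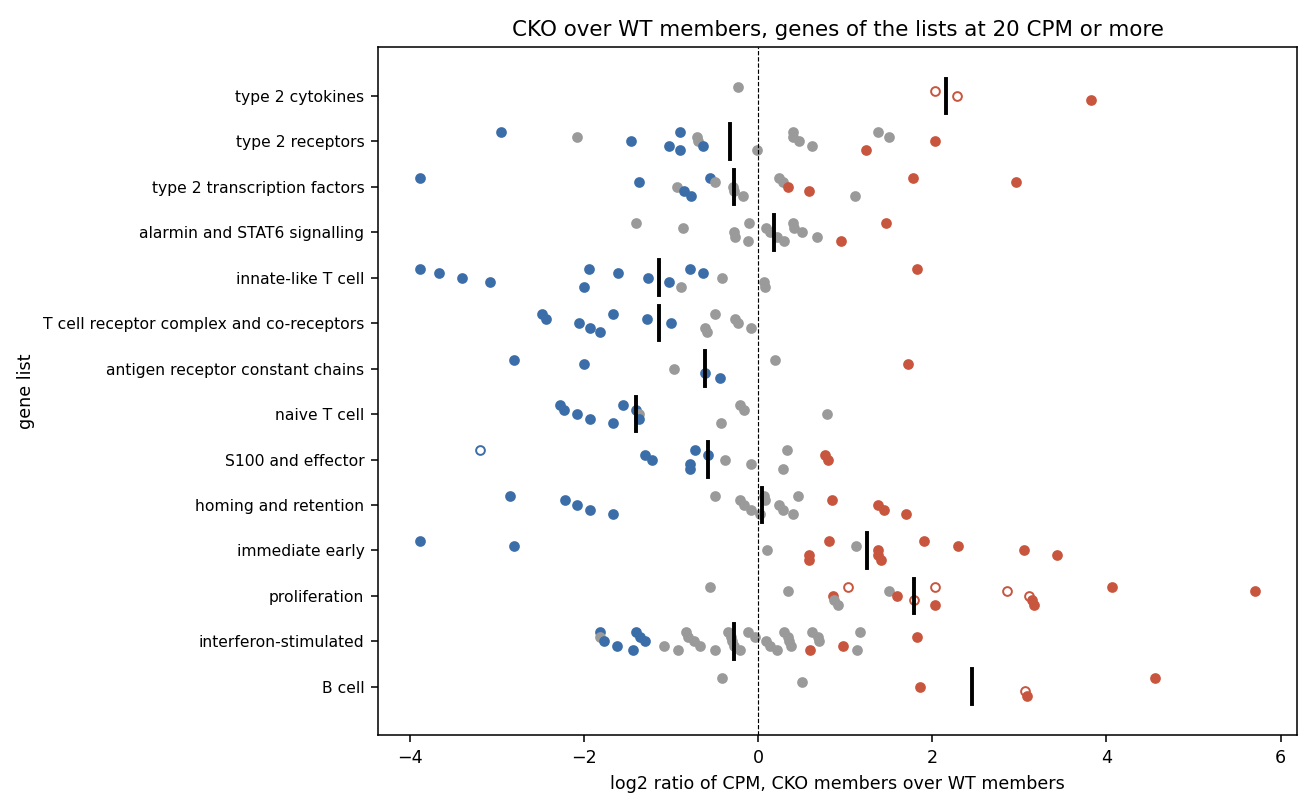
Log2 ratio of CPM, CKO over WT members (horizontal axis), of each measured gene in 14 lists (vertical axis); red genes had an interval above 1, blue genes below 1, grey genes neither, open circles had no UMI in a library and are drawn with 3 counts there, and black bars are medians. Immediate early and proliferation genes lie mostly to the right, with medians of 1.25 and 1.79, and naive and innate-like T cell genes to the left, with medians of -1.41 and -1.15.

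Markers of other cell types were examined in the same cells. Of 15 mast cell and basophil genes 12 were at 0 in all members, among them Mcpt8, Cpa3, Fcer1a, Ms4a2 and Gata2, and the list summed to 5 UMIs in WT and 12 in CKO, most of them Kit. None of the 36 CKO members and 2 of the 19 WT members had the NK genes Ncr1, Klrb1c or Klre1. The B cell list was higher in CKO members, going from 306 CPM for WT to 866 CPM for CKO, with 4 of 6 measured genes above 1 (Cd74, Cd79b, H2-Aa and Ly6d). Cd79b was found in 1 WT and 14 CKO members, at most 3 UMIs each, against 8.36% and 10.6% of other T cells and 98.0% and 98.5% of B cells. Any of Cd79b, Ighm and Igkc was present in 13 WT and 29 CKO members, and its part in the differences was not tested. A member without these genes was found 6 times in WT and 7 times in CKO, and 4 and 2 of these cells had Cd3e. The log2 ratio of Jun among them was 2.92. Irf8 and Siglech, genes of plasmacytoid dendritic cells, came from 1 CKO cell with 35 and 22 UMIs, which had 2 UMIs of Il17rb, no Gata3, no Rora and no Trbc2. Tyrobp had 39 UMIs, all in 1 CKO cell.

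The remaining lists had few measured genes each. Over all 5884 genes at this level, 5.93% were above 1 and 7.31% below. Single genes in lists this short are therefore not read as results about the lists. Of 9 measured type 1 genes, 1 (Gzma) was above 1 and 3 were below, and of 5 type 17 genes, none was above and 2 (Ccr2 and Il23r) were below. Of 10 regulatory T cell genes, 1 (Areg) was above and 5 were below, among them Ctla4 and Nt5e. Of 7 p53 targets, 1 (Btg2) was above and none below, of 8 heat shock genes 1 (Dnaja1) and none, and of the 2 measured genes of replication protein A none and none. Of 4 NK genes, 1 (Tyrobp) was above and 1 (Txk) below, and of 3 myeloid genes 1 (Siglech) was above. The variable segments of innate-like T cells had 2 measured members, neither with an interval apart from 1.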

How the data were processed

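The deposited values are raw UMI counts, with 32285 genes as rows and barcodes as columns, and the authors' normalization, if any, is not part of these files. Per the file headers the counting used Cell Ranger 6.0.2. The submitters' processing notes instead name version 5.0.0, beside mm10 as the build and Seurat 4.0.3. Positions come from GENCODE M21 on GRCm38, which held 99.6% of the gene identifiers.

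The members and the 26 gene lists were chosen with earlier results of these data known, and nothing in them is independent support for what those results showed. Counts were summed per cell group and library and scaled to CPM (a total of 1000000) with NumPy 2.4.6 and SciPy 1.17.1. Shares have exact Clopper-Pearson intervals and ratios exact conditional binomial intervals, at 95%. PCR duplicates were removed by the UMIs in the authors' counts. A gene was called at 100 CPM or more in a library, a ratio of at least 2 or at most 0.5 and an interval without 1; list genes needed a mean of 20 CPM. A count of 0 was set to 3 counts for a bound. Genes named were those of the rule, the markers and the lists, the 10 highest and 10 lowest called ratios between CKO and WT members, and the 15 highest and 10 lowest against other T cells by the smaller ratio of the 2 libraries. Receptor and immunoglobulin segments, Xist, Y-linked, mitochondrial and predicted genes, and those whose level in B cells was 10 times that in members or more, were left out of these rankings. A gene of the lowest ranks against other T cells and a planned setting on B cell genes are not reported here; a setting without 1 of its genes is given instead. Rankings within subsets were planned for at least 20 cells per library; no subset had them, and none was made. Doublets were not removed: leaving out the highest Scrublet scores (Scanpy 1.11.5, 0.8% per 1000 barcodes) was an alternative. Detection shares were also taken after thinning all cells to 2000 UMIs; 175 WT and 237 CKO cells were shallower, none of them a member. Poisson (independent random) counts were simulated for 1610 genes from the levels in WT members and the member totals of both libraries. Of the intervals, 95.9% held the true ratio, and 0.993% of unchanged genes were called. The share of truly changed genes that was called came to 40% for 2-fold and 96% for 4-fold changes. The intervals assume the same kind of counts, so this coverage follows from the setting. UMIs gathered in single cells, as seen in the members, were not simulated.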

Additional observations from a re-analysis of the deposited data

Results flagged for a closer look

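For 2 genes and 6 of the 26 gene lists, the CKO-to-WT ratios in members and in other T cells lay on opposite sides of 1. Each did so with its counting interval, within the same 2 libraries. The share of all genes that do so is not given here, so the counts of 2 and 6 are not read as results. Values over all members may carry the make-up, with Cd3e in 15 of 19 WT and 7 of 36 CKO members. The difference between members and other T cells was not tested, since each genotype has 1 library. Jun was 10.8 times as high in CKO members and 0.904 times in other CKO T cells. Ccr2 stood at 0.139 in members and 2.90 in other T cells, and its 17 WT UMIs lay in 4 cells. The remaining 6 were summed gene lists, all lower in CKO members. Innate-like T cell genes stood at 0.645 in members and 1.03 in other T cells. Receptor constant chains stood at 0.643 and 1.09, and type 17 genes, of which 5 were measured, at 0.633 and 2.64. Regulatory T cell genes stood at 0.610 and 1.31, S100 and effector genes at 0.753 and 1.09, and interferon-stimulated genes at 0.838 and 1.41. For 2 of these lists the lower value over all members appears in neither subset. The constant chains stood at 1.04 (0.885 to 1.22) within members with Cd3e and 1.21 (0.839 to 1.803) within those without, and the interferon-stimulated genes at 1.09 (0.967 to 1.22) and 1.42 (1.12 to 1.83). Jun was higher in CKO in both subsets, but within members with Cd3e 2 cells held 81 and 30 of its 120 CKO UMIs.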

How the results depend on the processing

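No paired analysis was possible because each genotype has 1 library, and no library could be left out. The ratio of member shares among kept cells stayed above 1 under its alternatives, from 1.09 with Cd79b, Ighm and Igkc also at 0 (6 WT and 7 CKO cells) to 2.92 with UMIs of at least 2 rule genes. The CKO minus WT share with Cd3e and Trdc turned from -10.2 to 2.94 percentage points with Il1rl1 and Il17rb alone. The count of genes apart between CKO and WT members was 254, and 476 at a floor of 50 CPM, 81 at 200 CPM and 389 with CPM over genes other than ribosomal protein and mitochondrial ones. Against other T cells, 67 became 119 at 50 CPM, 24 at 200 CPM and 139 with members without Cd3e alone. With equal subset make-up, 291 genes were apart and the values of 10 named genes are given with the genes. Of 256 log2 ratios of named genes under alternatives, 245 kept their direction. Part of these could not change. The floors of 50 and 200 CPM do not enter the ratio, and the setting with mast cell and basophil genes at 0 left out no member. Their values repeat the main ones, so the count overstates how far the direction was tried. With the extra B cell genes at 0, Hist1h1b was at -2.09, Hist1h2ae at -2.09, Irf8 at -0.51, Ccr2 at 0.078 and Ipcef1 at 1.08. Without cells above 15000 UMIs, Hist1h1b was at -0.37, Hist1h2ae at -0.22 and Prc1 at -0.95. With UMIs of at least 2 rule genes, Hist1h1b was at -1.51, Hist1h2ae at -0.51 and Hist1h3c at -1.51. These settings hold fewer cells, and each leaves out the CKO cell of 26795 UMIs. That cell held 228, 67 and 71 UMIs of Hist1h1b, Hist1h2ae and Hist1h3c. No other cause was tested. The setting with extra B cell genes at 0, those that drop the Foxp3 condition, the Cd79a and Ms4a1 condition or Il4, cells above 15000 UMIs or members with Cd3e, and the 2-gene rule applied to gene levels, were chosen after seeing the data. Depth limits every gene of the 4 WT members without Cd3e, where a count of 0 allows up to 134 CPM.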
